A study of Mus musculus with 16 samples.

Results

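Tsga13, I830077J02Rik, AW011738, Ffar2 and Asb2 are 5 little-studied genes that mouse marginal zone (MZ) B-cells carried at 28.3 to 147 RPKM, while T2 cells, a transitional stage before them, carried at most 1.76 RPKM. They are 5 of the 38355 genes in the RNA-Seq table, and 5 of the 12507 with a mean above 1 RPKM in at least 1 group. They were chosen by name for being nearly absent in T2 cells and strongly expressed in MZ B-cells. Their MZ and T2 levels, and the gap between them, are therefore given as a description with no test.

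MZ B-cells sit at the border of the white pulp of the spleen, where they meet blood-borne antigen and respond rapidly without T-cell help, whereas follicular (FO) B-cells recirculate and serve T-dependent responses. Both arise from transitional cells, T1 and then T2, and the MZ fate needs Notch2 signalling. Of the 5 genes, 2 have a known biochemical role. Ffar2 encodes a G protein-coupled receptor for short-chain fatty acids such as acetate and propionate, best known on neutrophils and in the gut. Asb2 encodes the substrate-binding subunit of a cullin-5 ubiquitin ligase that marks filamins, the cross-linkers of actin, for degradation, and it is known as a Notch-induced gene. Tsga13 is named for its expression in the testis. I830077J02Rik and AW011738 carry clone names, and no role is given for them here.

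The study compared Mir146a-/- (KO) mice, which lack the microRNA miR-146a throughout the body, with wild-type (WT) mice, both on C57BL/6, and sorted 4 subsets of splenic B-cells from each: T1, T2, MZ and FO. Each of the 8 groups had 2 biological replicates, 16 libraries in all, and spleens of 3 to 5 mice were pooled before a sort. The WT mice were purchased and the KO line was made earlier, littermates are not stated, and the age of the sorted mice is not given in the sources used here. Values are RPKM, read counts scaled to exon length and to the mapped reads of the library, and the reads behind them were recovered from the steps between values. The 16 libraries held 9003343 to 26386684 reads. The 14 genes listed as MZ markers summed to 3016 to 3280 RPKM in the 4 MZ libraries and to 634 to 986 RPKM in the 12 others. Sox7, 1 of the 14, was at or near 0 throughout. The gene lists were chosen with earlier results of these data known, so such sums describe the labelled groups and are no independent check. The 7 genes of B-cell identity summed to at least 4452 RPKM in every library. Replicate 2 of T1 stood apart from replicate 1 in both genotypes: the 7 B1 markers summed to 81.3 RPKM in KO T1 replicate 2 and 85.5 in WT T1 replicate 2, against 21.9 RPKM in KO T1 replicate 1 and 38.3 in WT T1 replicate 1. The shift was not particular to B1 markers, and the B1 gene Bhlhe41 fell in WT, from 26.3 to 22.7 RPKM. From replicate 1 to 2, monocyte and macrophage markers rose from 31.0 to 148 RPKM in KO and from 22.9 to 91.0 in WT. T cell markers rose from 11.4 to 29.2 RPKM in KO and from 7.17 to 28.6 in WT. Transitional markers fell, from 1575 to 1201 RPKM in KO and from 1659 to 1245 in WT.

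On GRCm38, Tsga13 (ENSMUSG00000039032) lies on chr6:30896981-30915573, I830077J02Rik (ENSMUSG00000074342) on chr3:105924358-105932664, Ffar2 (ENSMUSG00000051314) on chr7:30818348-30823775 and Asb2 (ENSMUSG00000021200) on chr12:103321142-103356001, all on the minus strand. AW011738 (ENSMUSG00000078349) lies on the plus strand of chr4:156203304-156205151 as a single exon, and is a protein-coding gene in GENCODE M21 and a long non-coding RNA in RefSeq. The 5 genes are on 5 chromosomes. GENCODE annotates 8 exons for the coding transcript of Tsga13, 6 for that of I830077J02Rik, up to 3 for Ffar2 and up to 10 for Asb2.

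RefSeq (GRCm38.p6) gives a start site for all 5 genes, 1 each for Tsga13, I830077J02Rik and AW011738, 4 for Ffar2 and 2 for Asb2. The sequences around 5 of these starts are shown because the genes share one expression pattern, and they allow its promoters to be read side by side. Each runs 5′ to 3′ on the gene's strand over 300 bases, from 250 bases before the start. Capitals mark the letters TGGGAA, the core bound by the Notch effector RBPJ, or GAGGAA, the core bound by the B-cell and myeloid factor PU.1, on either strand, so TTCCCA and TTCCTC are the same cores on the other strand.
Tsga13, chr6:30915524-30915823: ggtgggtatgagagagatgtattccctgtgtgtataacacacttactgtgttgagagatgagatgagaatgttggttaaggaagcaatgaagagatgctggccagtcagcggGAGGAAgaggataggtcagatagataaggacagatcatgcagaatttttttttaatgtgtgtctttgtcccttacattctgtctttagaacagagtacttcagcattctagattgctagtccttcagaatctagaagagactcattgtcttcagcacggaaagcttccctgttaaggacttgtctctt
I830077J02Rik, chr3:105932615-105932914: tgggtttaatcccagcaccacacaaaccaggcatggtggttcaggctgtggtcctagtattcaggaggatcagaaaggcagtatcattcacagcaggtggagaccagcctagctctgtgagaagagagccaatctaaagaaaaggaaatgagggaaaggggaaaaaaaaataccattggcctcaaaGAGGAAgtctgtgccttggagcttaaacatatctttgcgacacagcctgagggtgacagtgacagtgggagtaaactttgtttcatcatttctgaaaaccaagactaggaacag
AW011738, chr4:156203034-156203333: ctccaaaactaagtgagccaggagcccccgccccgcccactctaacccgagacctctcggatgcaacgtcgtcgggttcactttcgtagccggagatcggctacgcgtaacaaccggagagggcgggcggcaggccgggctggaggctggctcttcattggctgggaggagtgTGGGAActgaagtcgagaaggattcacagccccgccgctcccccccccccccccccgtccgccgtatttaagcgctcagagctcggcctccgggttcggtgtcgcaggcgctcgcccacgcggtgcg
Ffar2, outermost start, chr7:30823726-30824025: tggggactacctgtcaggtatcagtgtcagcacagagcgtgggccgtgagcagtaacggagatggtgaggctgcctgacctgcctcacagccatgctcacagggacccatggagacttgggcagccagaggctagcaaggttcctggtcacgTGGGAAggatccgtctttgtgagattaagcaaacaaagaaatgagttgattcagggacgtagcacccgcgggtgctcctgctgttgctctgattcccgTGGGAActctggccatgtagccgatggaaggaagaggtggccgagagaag
Asb2, inner start, chr12:103338341-103338640: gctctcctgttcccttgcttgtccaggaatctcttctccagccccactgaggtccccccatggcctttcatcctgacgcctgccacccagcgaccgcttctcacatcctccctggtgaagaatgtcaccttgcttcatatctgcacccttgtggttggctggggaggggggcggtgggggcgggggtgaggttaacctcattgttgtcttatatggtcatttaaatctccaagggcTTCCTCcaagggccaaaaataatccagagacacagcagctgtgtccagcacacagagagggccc

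Positions below are those of the first printed base of a match relative to the start. The RBPJ core TGGGAA was at -77 in AW011738 and in the windows of all 4 Ffar2 starts, with 2 copies in the outermost window, 1 of them at -98. The Ffar2 windows chr7:30821090-30821389 and chr7:30821143-30821442 overlap, and the core in them is the same site. It was not in the windows of Tsga13, I830077J02Rik or either Asb2 start. Of all 32851 promoters of the same length, 25.6% hold it. This share is per window, so a gene with several windows has more room for a match. The PU.1 core GAGGAA was at -138 in Tsga13, at -64 in I830077J02Rik and at -14 from the inner start of Asb2. It was also in 2 of the 4 Ffar2 windows, the overlapping ones, again as the same site. Of all promoters, 28.3% hold it. Other searches on both strands were for the octamer ATGCAAAT (1.74% of all promoters), the EBF element TCCCNAGG (6.77%), the AP-1 element TGANTCA (7.81%), the KLF core CACCC (57.5%) and the E-box CANNTG (72.3%). The octamer and the EBF element were in none of the 9 windows, and the AP-1 element was in 1, the outermost Ffar2 window. The E-box overlapped the TGGGAA core once, in that same window. No motif was shared by all 5 genes, and these matches are descriptions of letters, not of bound sites.

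Tsga13 had the widest gap between MZ and the other subsets of the 5. It had 85.3 and 55.4 RPKM in the KO MZ libraries (1315 and 1111 reads), against 0.146 and 0.187 RPKM in KO T2 (2 and 3 reads). In WT it had 52.0 and 71.0 RPKM in MZ (1073 and 1532 reads) and 0 reads in both T2 libraries. A count of 0 allows up to 0.116 RPKM when 3 reads are taken over the WT T2 group, so the WT MZ mean was at least 529-fold higher; this limit covers counting error only. Elsewhere the gene rested on single reads, with 1 and 4 in KO T1 and 1 and 0 in WT T1, and 5 and 4 in KO FO and 2 and 7 in WT FO. In bulk samples such as these, fewer cells that carry a transcript and less of it per cell cannot be told apart.

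I830077J02Rik reached the highest level of the 5. It was at 147 and 96.7 RPKM in KO MZ, against 0.564 and 1.12 RPKM in KO T2. In WT it was at 102 and 119 RPKM in MZ and at 1.76 and 1.22 RPKM in T2. Its low level was present in every other library, between 0.485 and 1.62 RPKM in T1 and FO (13 to 50 reads), so the gene was low and not absent outside MZ. The RPKM of this gene are scaled to 1328 bases of exon, while GENCODE M21 gives 2865, and another length would move all its levels together. Those of Tsga13 are scaled to 1141 bases (1674 in GENCODE) and those of Ffar2 to 2534 (2790), while AW011738 and Asb2 have the GENCODE length, so the order of levels between genes depends on these lengths.

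AW011738 had the highest mean of the 5 genes in FO, though not in T1 or T2. It was at 68.9 and 42.1 RPKM in KO MZ, against 0.856 and 1.08 RPKM in KO T2, and at 42.0 and 39.5 RPKM in WT MZ, against 0.721 and 1.31 RPKM in WT T2. In FO cells it was at 4.65 and 2.97 RPKM in KO and at 1.78 and 2.21 RPKM in WT, above every T1 and T2 library. T1 values were 0.484 and 1.46 RPKM in KO and 0.129 and 1.01 RPKM in WT.

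Ffar2 had the most even level in MZ. It was at 29.8 and 28.3 RPKM in KO MZ and at 29.3 and 31.7 RPKM in WT MZ (1020 to 1520 reads), against 0.329 and 0.898 RPKM in KO T2 and 0.526 and 0.579 RPKM in WT T2. Its lowest values were in T1, at 0.0353 and 0.219 RPKM in KO and 0.126 and 0.0568 RPKM in WT. FO cells carried 2.65 and 1.02 RPKM in KO and 0.643 and 1.01 RPKM in WT. Over all 4 libraries per subset Ffar2 was thus lowest in T1, and no T1 library reached the lowest T2 library.

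Asb2 was at 29.4 and 40.2 RPKM in KO MZ, against 0.282 and 1.39 RPKM in KO T2, and at 42.7 and 39.3 RPKM in WT MZ, against 0.627 and 0.663 RPKM in WT T2. In T1 it had 0.430 and 0.821 RPKM in KO and 0.338 and 0.386 RPKM in WT. In FO it had 0.455 and 0.581 RPKM in KO and 0.246 and 0.494 RPKM in WT. T1, T2 and FO overlapped for this gene, and MZ stood apart.

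**Figure D1:**
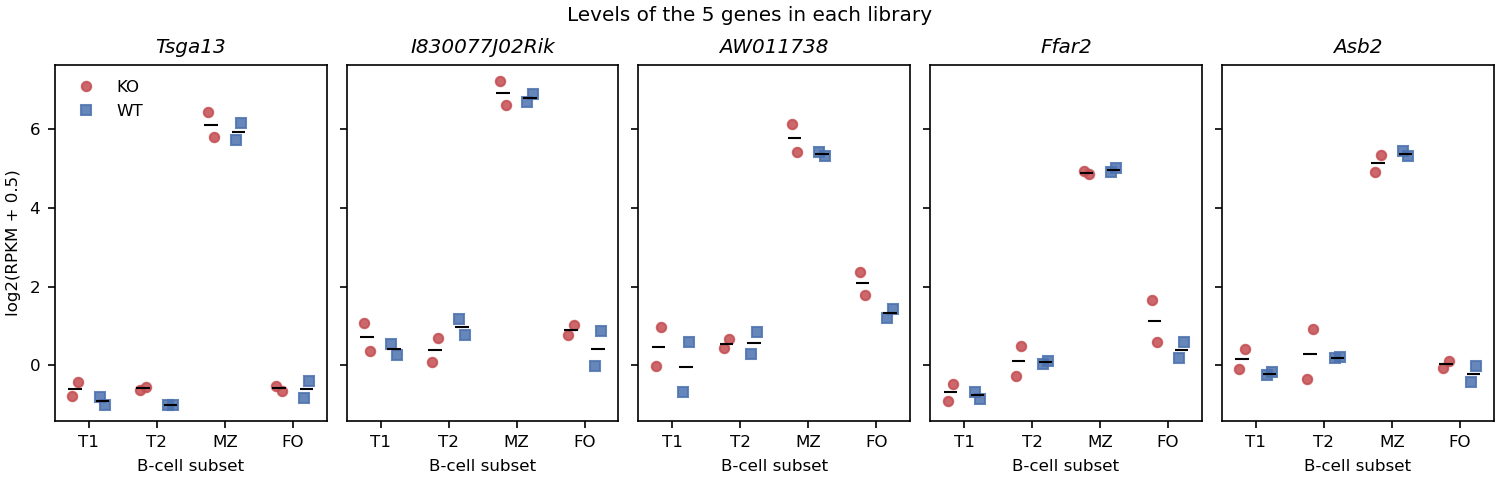
Levels of the 5 genes as log2(RPKM + 0.5), a log scale, in each library of T1, T2, MZ and FO B-cells; circles are KO and squares WT, with 2 libraries each, and the bar is their mean. For every gene the 4 MZ libraries stand above the 12 others, with AW011738 and Ffar2 next highest in FO.

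All 4 MZ libraries lay above all 12 others for each of the 5 genes, which 14.6% of the 12507 genes also did. The choice of the members used this contrast, so the count is a description. The lowest MZ library exceeded the highest other library 199-fold for Tsga13, 55.1-fold for I830077J02Rik, 21.2-fold for Asb2, 10.7-fold for Ffar2 and 8.49-fold for AW011738. Ordered by this gap on the log2(RPKM + 0.5) scale, Tsga13 and I830077J02Rik were first and second of 12507, Asb2 was 7th, Ffar2 16th and AW011738 25th. The MZ to T2 difference was 6.70 in KO and 6.94 in WT for Tsga13. It was 6.51 in KO and 5.82 in WT for I830077J02Rik, 5.22 in KO and 4.79 in WT for AW011738, 4.78 in KO and 4.88 in WT for Ffar2, and 4.84 in KO and 5.18 in WT for Asb2. Their median over both genotypes was 5.20. By the same difference against FO, AW011738 had 3.69 in KO and 4.05 in WT and Ffar2 3.76 and 4.56, while the other 3 genes had at least 5.10.

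Near-absence in T2 was not equally strict in the members. Tsga13, Asb2 and Ffar2 were under 1 RPKM in T2 and over 10 RPKM in MZ in both genotypes, a level rule that 19 genes met. I830077J02Rik and AW011738 missed it because their WT T2 means were 1.49 and 1.02 RPKM, just above the 1 RPKM line. The other 16 genes that met it had lower MZ means than these 3, from 10.5 RPKM for Meis3, a homeobox gene, to 27.6 RPKM for Cxcr7, a chemokine receptor gene listed under its older name. They include Tbc1d9 (26.4 RPKM), the tetraspanin gene Tspan15 (26.1), Rap1gap (21.3), a Rap1 GTPase-activating protein gene, Nebl (17.8), Adam28 (14.7), the meiotic cohesin gene Rec8 (13.9), Ceacam2 (13.1), the cAMP phosphodiesterase gene Pde4d (13.0) and the drug transporter gene Abcb1a (11.6).

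Outside MZ, the remaining levels ranked the members differently. As a share of its MZ mean over 4 libraries, Tsga13 was at 0.148% in T1, 0.126% in T2 and 0.252% in FO, and I830077J02Rik at 0.873%, 1.00% and 0.974%. Asb2 was at 1.303%, 1.95% and 1.17%. None of these 3 genes had a subset order in T1, T2 and FO that exceeded the spread between libraries. AW011738 was at 1.60% in T1, 2.06% in T2 and 6.03% in FO, and Ffar2 at 0.366%, 1.96% and 4.46%. For AW011738 the FO libraries lay above those of T2 and T1, which overlapped. For Ffar2 the FO and T2 libraries overlapped and both lay above T1.

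**Figure D2:**
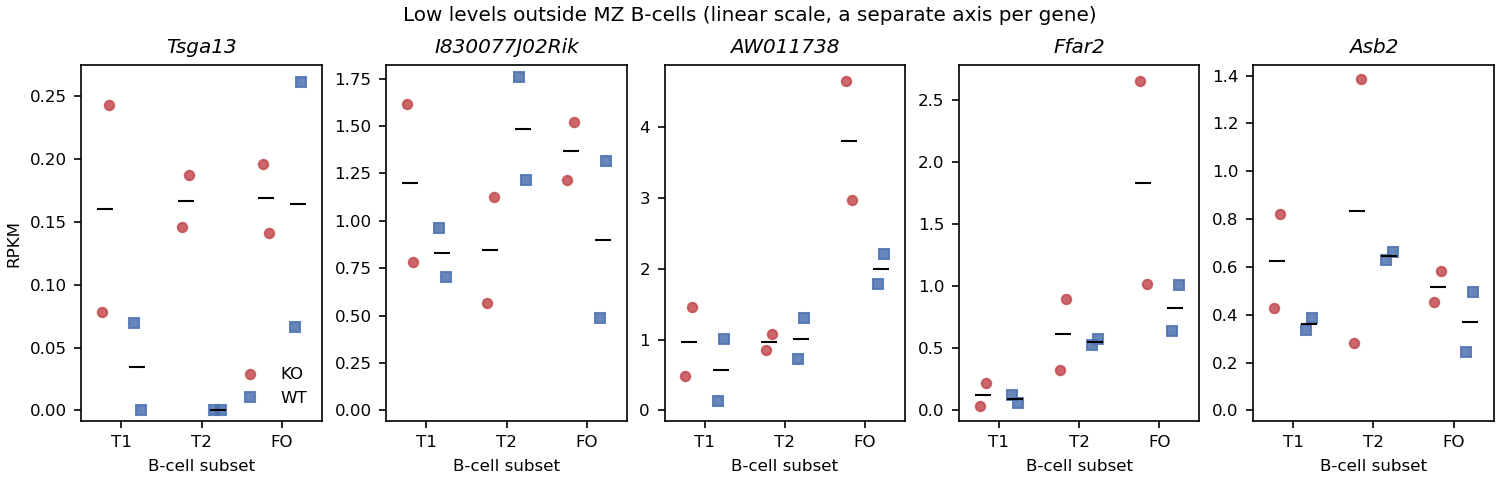
RPKM of the 5 genes in T1, T2 and FO B-cells on a linear scale with a separate axis for each gene; circles are KO and squares WT, with 2 libraries each, and the bar is their mean. FO libraries of AW011738 (1.78 to 4.65 RPKM) and Ffar2 (0.643 to 2.65 RPKM) lie above all T1 libraries, which the other 3 genes do not show.

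FO and T1 are the subsets that the choice of members did not use, so their difference was tested. With limma over both genotypes, 2 of the 5 genes, AW011738 and Ffar2, were called higher in FO, against 4.29% of all tested genes called higher and 9.5% called in either direction. AW011738 differed by 1.48 on the log2(RPKM + 0.5) scale (standard error 0.31, adjusted p = 0.00305) and Ffar2 by 1.49 (standard error 0.24, adjusted p = 5.66e-04). Both were higher in 4 of 4 FO libraries than in any T1 library, which 26.6% of genes were. The scale understates changes of genes this low: with limma-voom on the recovered reads the differences were 2.16 for AW011738 and 3.41 for Ffar2. The 3 members above 1 RPKM in a FO or T1 group, and so open to a call, were these and I830077J02Rik. Tsga13, I830077J02Rik and Asb2 were not called, with differences of 0.16 (95% confidence interval -0.22 to 0.55), 0.09 (-0.45 to 0.63) and -0.06 (-0.61 to 0.48). Without replicate 2 of T1 in both genotypes, an alternative chosen after seeing the data, the differences were 2.04 for AW011738 (adjusted p = 3.59e-04 from limma) and 1.55 for Ffar2 (adjusted p = 0.00391).

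The 13 tested MZ markers were set beside this difference, and 3 were called higher in FO than in T1 and 2 lower, with a median of -0.42 against 0.08 over all genes. Cr2, a complement receptor gene (2.96, and 3.07 for a second entry under that symbol), Dtx1 (1.51) and Notch2 (1.14) were called higher. S1pr3, a sphingosine receptor gene, was called lower (-1.51), as was the scavenger receptor gene Cd36 (-1.65). Whether MZ B-cells contribute to the FO levels of AW011738 and Ffar2 was not tested.

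KO and WT cells were then compared within each subset, which the choice of the members did not use either. Tsga13 and Asb2 passed the filter on low values through their MZ means alone. A mean above 1 RPKM in a compared group, which a call requires, was reached by 5 members in MZ, 3 in FO, 2 in T2 and 1 in T1, so Tsga13 and Asb2 could be called in MZ and not in the other subsets. With limma, 0 members were called in T1, T2, MZ or FO or across the 4 subsets. Among all 12507 genes the shares called were 0.04% in T1, 0.048% in T2, 0.064% in MZ, 0.032% in FO and 0.072% across the subsets. At an unadjusted p under 0.05 there was 1 member in FO, as for 0.919% of genes, and 0 members in T1 (3.51% of genes), T2 (3.37%), MZ (1.65%) and across the subsets (7.98%). Limma-voom on the recovered reads also called 0. A call needs an adjusted p under 0.05 and a difference beyond 1. The KO minus WT estimates were above 0 for 5 of 5 members in T1 (median 0.31) and in FO (median 0.48), as were 51.2% and 57.8% of all genes. They were above 0 for 3 members in T2 (median 0.03) and in MZ (median 0.11), as were 53.8% and 57.7% of all genes. With quantile normalization Ffar2 in T1 and Tsga13 in FO were below 0.

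In MZ, where the genes are abundant, none was called between KO and WT, and with 2 libraries a group the intervals were wide. Tsga13 averaged 70.4 ± 21.2 RPKM in KO MZ and 61.5 ± 13.5 in WT MZ (SD, n = 2 each), and I830077J02Rik 122 ± 35.9 and 111 ± 11.6 RPKM. Ffar2 averaged 29.1 ± 1.03 RPKM in KO MZ and 30.5 ± 1.69 in WT MZ. Asb2 averaged 34.8 ± 7.62 RPKM in KO MZ and 41.0 ± 2.38 in WT MZ. AW011738 averaged 55.5 ± 18.9 RPKM in KO MZ and 40.8 ± 1.82 in WT MZ, and both KO libraries lay above both WT libraries, by 42.1 against 42.0 RPKM at the closest, which 17.6% of genes did. The KO minus WT differences were 0.18 for Tsga13 (95% confidence interval -0.37 to 0.72), 0.11 for I830077J02Rik (-0.65 to 0.88), 0.40 for AW011738 (-0.56 to 1.36), -0.07 for Ffar2 (-0.80 to 0.67) and -0.25 for Asb2 (-1.01 to 0.52). Each interval includes 0, and together they reach from -1.01 to 1.36. The difference for AW011738 was 0.05 without KO MZ replicate 1 and 0.75 without KO MZ replicate 2.

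In FO, AW011738 differed by 0.76 between KO and WT FO (-0.20 to 1.73). Ffar2 differed by 0.74 (95% confidence interval 0.00033 to 1.47, unadjusted p = 0.0499, adjusted p = 1 from limma) and was the member at an unadjusted p under 0.05. For both genes the 2 KO FO libraries lay above the 2 WT FO libraries, as did 17.0% of genes. For Ffar2 this rested on the KO FO replicate 1 library, and without it the difference was 0.21. In T2, Tsga13 had 5 reads in KO and 0 in WT, a difference of 0.41 (-0.13 to 0.96) that was 1.41 with a pseudocount of 0.1 and 2.35 with limma-voom, none of them called, and I830077J02Rik differed by -0.58 (-1.35 to 0.18). Counted without overlap of the libraries, KO lay above WT for 2 members in T1, Tsga13 and Asb2 (10.7% of genes did), for 1 in T2, Tsga13 (12.7%), for 1 in MZ and for 2 in FO. Tsga13 and Asb2 had passed the filter through MZ alone. In T1 replicate 1, Tsga13 had 1 read in KO and 1 in WT. Asb2 had 17 reads in KO T1 replicate 1 and 19 in WT T1 replicate 2. These 2 separations in T1 therefore came from scaling to the library totals. KO lay below WT for 0 members in T1 (10.8% of genes did), for 1 in T2, I830077J02Rik (9.75%), and for 0 in MZ (11.7%) and in FO (10.2%).

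**Figure D3:**
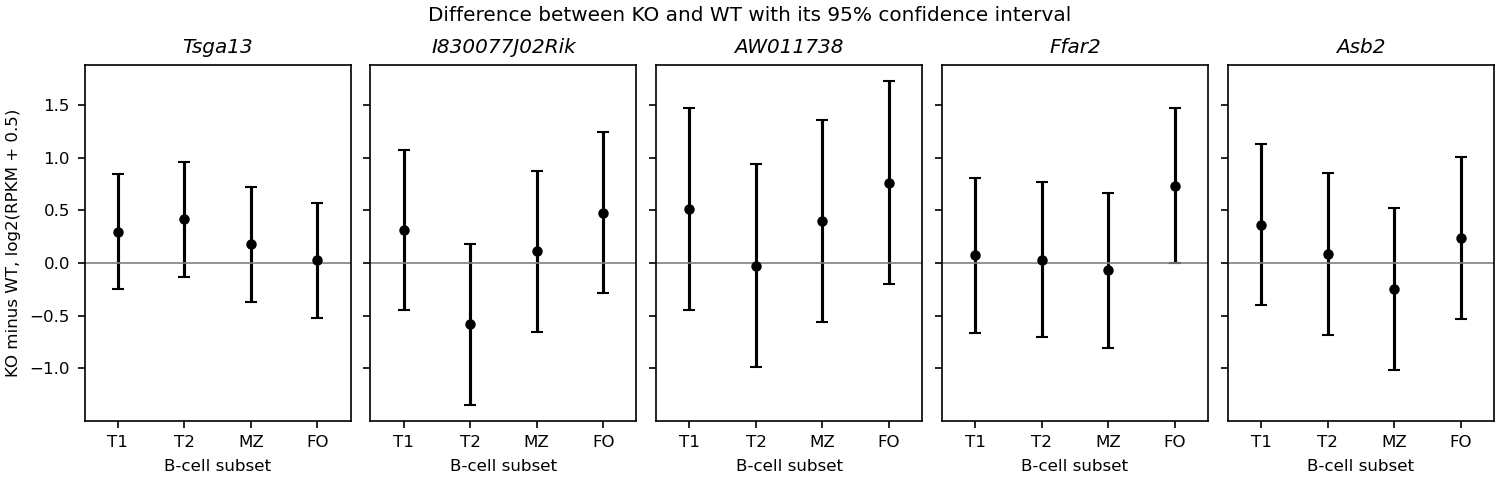
KO minus WT difference of the 5 genes on the log2(RPKM + 0.5) scale in each B-cell subset; points are estimates from limma and bars their 95% confidence intervals (2 libraries per group). Only the interval for Ffar2 in FO lies above 0, from 0.00033 to 1.47, and no difference was called after adjustment.

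The study asked whether the step from T2 to MZ differs between the genotypes. The difference between KO and WT in the MZ to T2 change was -0.24 for Tsga13 (-1.01 to 0.54), 0.69 for I830077J02Rik (-0.39 to 1.77), 0.42 for AW011738 (-0.94 to 1.78), -0.10 for Ffar2 (-1.14 to 0.94) and -0.33 for Asb2 (-1.42 to 0.75). With limma 0 of the 5 were called and 0 had an unadjusted p under 0.05, against 0.008% called and 1.66% under that p among all genes, and limma-voom also called 0. Without KO MZ replicate 1 the value for AW011738 was 0.07, and without KO T2 replicate 1 that for I830077J02Rik was 0.39.

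miR-146a acts by pairing its seed, bases 2 to 8, with sites in the 3′ UTRs of messenger RNAs. The mature sequence, from RefSeq (GRCm38.p6), is shown with its seed in capitals because the KO mice lack it.
mmu-miR-146a-5p, chr11:43374435-43374456: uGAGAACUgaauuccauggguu
Matches to the seed (AGTTCTCA, AGTTCTC or GTTCTCA) were searched in the annotated 3′ UTRs of the 5 genes, which are up to 93 bases long in Tsga13, 2082 in I830077J02Rik, 1364 in AW011738, 773 in Ffar2 and 396 in Asb2. None of the 5 held a match, while 21.8% of the 10264 tested genes with an annotated 3′ UTR did.

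Spread between replicates also differed among the members. Between the KO MZ replicates, replicate 1 minus replicate 2 was 0.62 on the log2 scale for Tsga13, 0.61 for I830077J02Rik and 0.70 for AW011738, while it was 0.07 for Ffar2 and -0.44 for Asb2. The central 95% of the 5928 genes over 10 RPKM in KO MZ lay between -0.64 and 0.58, so the first 3 genes stood just outside that range. Between the WT MZ replicates the differences were -0.45 for Tsga13, -0.21 for I830077J02Rik, 0.09 for AW011738, -0.11 for Ffar2 and 0.12 for Asb2, with a central range of -0.44 to 0.42 over 5813 genes. Tsga13, the gene with the widest gap between MZ and the other subsets, was at the edge of both ranges, and Ffar2 was well within both.

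Genes beside the members on the chromosome were examined next. Copg2, a coat protein gene of the Golgi, is on the same strand as Tsga13. Its annotated start lies 187 bp past the annotated end of Tsga13. Copg2 had 29.5 RPKM in KO MZ and 29.7 in WT MZ, against 12.8 to 16.4 RPKM in the other groups. Tmigd3, an immunoglobulin-domain gene 316 bp from I830077J02Rik on the opposite strand, had 6.25 and 3.54 RPKM in KO MZ and 3.87 and 4.52 in WT MZ, against at most 0.154 RPKM elsewhere. Its KO MZ replicates differed in the same direction as those of I830077J02Rik. Gm15523, an antisense transcript that overlaps Asb2, had 0.843 and 3.50 RPKM in KO MZ and 3.90 and 3.13 in WT MZ, against at most 0.167 RPKM elsewhere, and it too was lower in the KO MZ replicate in which Asb2 was lower. Whether reads were counted by strand is not stated, and reads from Gm15523 and from Asb2 cannot then be told apart.

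Both neighbours of AW011738 were also highest in MZ. Isg15, an interferon-induced ubiquitin-like protein gene 2486 bp away, had 30.1 RPKM in KO MZ and 25.6 in WT MZ, against 3.85 to 10.8 RPKM in the other groups, and Perm1, a muscle metabolism regulator gene 10717 bp away, had 6.22 and 6.38 RPKM, against 0.652 to 1.12. The nearest coding genes of Ffar2 and Asb2 had other patterns, unlike Gm15523, which overlaps Asb2. Ffar3, a second receptor gene for short-chain fatty acids 30555 bp from Ffar2, had 0.350 RPKM in KO MZ and 0.183 in WT MZ, below its 1.21 and 1.09 RPKM in KO and WT FO. Otub2, a deubiquitinase gene 32681 bp from Asb2, had 2.63 RPKM in KO MZ and 3.01 in WT MZ, against 8.96 and 8.23 RPKM in KO and WT T1. Krtdap, Fam181a and Klf14, the remaining closest coding neighbours of Ffar2, Asb2 and Tsga13, were at or near 0, and 4930412F09Rik, which overlaps Tsga13 on the plus strand, did not exceed 0.26 RPKM in any library. Atp5f1, an ATP synthase subunit gene beside I830077J02Rik, had 34.7 RPKM in KO MZ and 32.3 in WT MZ, against 25.9 to 33.0 RPKM in the other groups. Not all neighbours followed their member from KO MZ replicate 1 to 2. Isg15 rose from 28.0 to 32.2 RPKM and Atp5f1 from 33.0 to 36.5, while AW011738 and I830077J02Rik fell. Perm1 fell with AW011738, from 6.38 to 6.05 RPKM, and Copg2 with Tsga13, from 30.8 to 28.3.

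**Figure D4:**
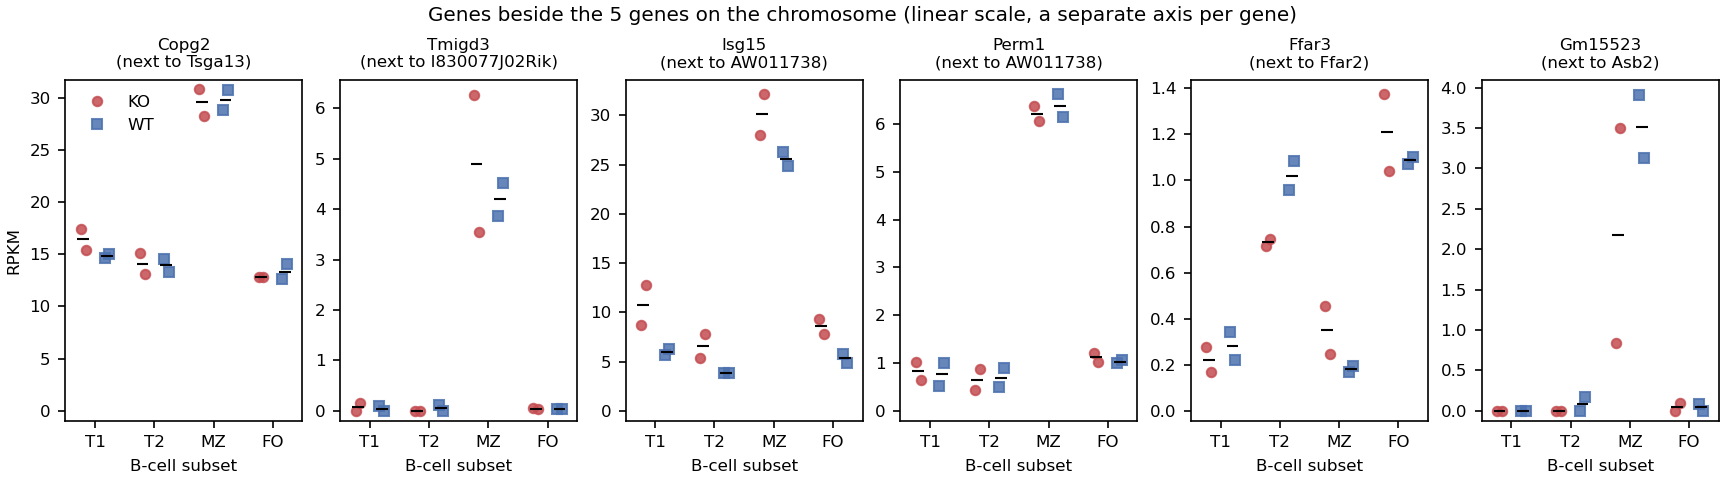
RPKM of 6 genes beside the members on the chromosome in T1, T2, MZ and FO B-cells on a linear scale with a separate axis for each gene; circles are KO and squares WT, with 2 libraries each, and the bar is their mean. Copg2, Tmigd3, Isg15, Perm1 and Gm15523 are highest in MZ, whereas Ffar3 is below its FO level there. The 6 genes are a selection from the neighbours described in the text. Atp5f1, Otub2, Klf14, Krtdap, Fam181a and 4930412F09Rik are not shown. Of all tested genes, 14.6% had all MZ libraries above the others.

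The fatty acid receptor family divided by subset. Of 16 listed receptor, G protein, arrestin and transporter genes in the table, 10 were tested. Ffar2 alone had all MZ libraries above the others, as 14.6% of all tested genes did. Ffar2 was chosen for its MZ level, so this count is a description. Ffar1, the receptor for medium- and long-chain fatty acids, had 19.4 RPKM in KO MZ and 20.2 in WT MZ, below its 51.3 and 55.3 RPKM in KO and WT FO. Per length, the MZ level of Ffar2 was thus above that of Ffar1, at 29.1 against 19.4 RPKM in KO and 30.5 against 20.2 RPKM in WT. Ffar4 stayed under 0.06 RPKM in every group mean. Of the 10 genes, 4 were called higher in FO than in T1 and 0 lower, against 4.29% and 5.21% of all genes. They were Ffar1 (1.17), Ffar2, Ffar3 (1.13) and Arrb1 (1.41), which encodes an arrestin that uncouples such receptors. The median FO to T1 difference of the 10 was 0.52, against 0.08 over all genes. None was called between KO and WT in MZ.

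Asb2 stood apart from its family in the same way. Of 18 ASB genes, 7 were tested, and Asb2 alone had all MZ libraries above the others, as 14.6% of all tested genes did. Asb2 was chosen for its MZ level, so this count is a description. The next highest in MZ was Asb13, at 22.6 RPKM in KO MZ and 20.1 in WT MZ, close to its 19.8 to 24.0 RPKM elsewhere, and 0 of the 7 were called between FO and T1 (9.5% of all genes were). The partners of the ligase were expressed in every subset. Cul5, the cullin scaffold, had 9.64 RPKM in KO MZ and 8.96 in WT MZ, within its range elsewhere. Flna, which encodes the substrate filamin A, was lowest in MZ, with 46.9 RPKM in KO MZ and 51.8 in WT MZ, against 127 to 149 RPKM in the other groups. These are transcript levels, and no protein was measured. Jak3 (1.28) was the 1 of 11 tested genes of this list called higher in FO than in T1, and 0 were called lower, against 4.29% and 5.21% of all genes.

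Notch genes were listed because the MZ fate needs Notch2. Of 23 in the table, 18 were tested, and 7 of these had all MZ libraries above the others, against 14.6% of tested genes. Dtx1, a Notch target, had 207 RPKM in KO MZ and 243 in WT MZ, Hes1 41.3 and 45.9 RPKM, and Hes5 8.75 and 5.76 RPKM. The receptor gene Notch2 itself had 66.5 and 72.9 RPKM in KO and WT MZ, below its 82.1 and 82.6 RPKM in KO and WT FO. Notch2, Dtx1, Nrarp and Lfng were the 4 of 18 tested genes called higher in FO than in T1, with 0 called lower, against 4.29% and 5.21% of all genes. Among 26 genes named for the testis, 21 of them tested, Tsga13 had the highest MZ level, followed by Spag9, which had 22.9 RPKM in KO MZ and 21.7 in WT MZ, against 33.9 RPKM in KO T2 and 35.5 in WT T2. Tsga10 had 0.828 RPKM in KO MZ and 0.709 in WT MZ and was called lower in FO than in T1 (-1.89), as was Tex30 (-1.01).

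The genes whose levels followed each member most closely were listed over the 16 libraries. By Pearson's r on log2(RPKM + 0.5), given as a description that follows from the MZ contrast by which the members were chosen, Tsga13 was followed by Rxfp1 (0.997), Ube2e2 (0.997) and Ceacam2 (0.996), and I830077J02Rik by Ceacam2 (0.994), BC051070 (0.993) and Adam28 (0.993). AW011738, with its FO level, was followed by the clock gene Per3 (0.994), the NADPH oxidase gene Cybb (0.990, with 188 RPKM in KO MZ and 168 in WT MZ, against 78.3 RPKM in KO T2 and 73.8 in WT T2) and F730043M19Rik (0.989). Ffar2 was followed by Rsu1 (0.992), Pik3r4 (0.985) and the double-stranded RNA receptor gene Tlr3 (0.985), and Asb2 by the cation channel gene Trpm2 (0.993), Abcb1a (0.991) and Ube2e2 (0.991). By Spearman's rho the 3 closest genes of each member included none of those that Pearson's r gave for it.

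Ffar2 is a gene of neutrophils and monocytes, and B1 cells can fall near an MZ gate, so their markers were set beside the members. The 12 neutrophil markers summed to 22.2 and 35.0 RPKM in KO MZ and 6.96 and 11.1 in WT MZ, against 55.7 and 70.8 RPKM in KO T2 and 63.5 and 39.9 in WT T2. Most of these sums came from the calprotectin genes, with S100a8 at 9.34 RPKM in KO MZ and 2.45 in WT MZ, against 21.9 RPKM in KO T2 and 20.9 in WT T2, and S100a9 at 12.1 and 4.08 RPKM in MZ, against 24.2 and 20.8 RPKM in T2. Ly6g had 0 reads in the 4 MZ libraries and also in 3 of the 4 T2 libraries. The 13 monocyte and macrophage markers in the table summed to 24.2 to 50.3 RPKM in MZ libraries and 13.6 to 148 RPKM in the others. In FO, KO replicate 1, the library with the highest Ffar2, had a neutrophil sum of 2.96 RPKM, and KO replicate 2 had 26.4. The 7 B1 markers summed to 218 to 228 RPKM in MZ and 21.9 to 85.5 RPKM elsewhere, and 1 of the 7 had all MZ libraries above the others. That gene, Fcrl5, is also a gene of MZ B-cells and made up 201 RPKM of the mean in KO MZ and 205 in WT MZ. Cd5 had 2.32 and 1.77 RPKM there, against 1.39 to 3.70 in the other groups. Spn had 2.08 and 1.01 RPKM (4.74 to 8.71 elsewhere) and Zbtb32 1.77 and 1.08 (0.992 to 3.28). Bhlhe41 had 4.80 and 4.58 RPKM (1.91 to 24.5 elsewhere) and Ctla4 0.757 and 0.582 (0.391 to 4.94). Plscr1, another of the 7, had 10.1 RPKM in KO MZ and 9.62 in WT MZ, against 2.19 to 7.15 elsewhere. Whether neutrophils, monocytes or B1 cells contribute to the levels of the 5 genes was not tested.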

How the data were processed

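RNA-Seq of 16 libraries was used. Per the labels and the study's methods, the authors removed low-quality and adapter reads, aligned the rest to mm10 (GRCm38) with TopHat, kept uniquely aligned reads and deposited RPKM per gene; no tool version is named in the sources used here. Within a gene the RPKM values are whole multiples of 1 read, and all 23194 genes above 0 gave whole reads within 0.01 (100.0%). Values entered limma 3.58.1 (R 4.3.3) as log2(RPKM + 0.5), in 1 model of the 8 groups, with p adjusted by Benjamini-Hochberg over the 12507 genes above 1 RPKM in a group mean. A call needed an adjusted p under 0.05, a difference beyond 1 (not for the genotype difference in the MZ to T2 change) and a mean above 1 RPKM. The script was tested on simulated data. Tables were built in Python 3.11.15 (pandas 2.3.3, numpy 2.4.6).

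The members and gene lists were chosen with earlier results of these data known. Named beside the members were the 3 genes most like each by Pearson's r, the nearest coding genes and overlapping genes. Genes under 1 RPKM in T2 and over 10 in MZ were also named, as were list members, with the counts of each list. Flna, Cul5, S100a8, S100a9 and Ly6g were picked from the lists after their values were seen. The 7 B1 markers were likewise named singly after their values were seen. Replicates are the submitters' biological replicates. Same-numbered replicates deviated together within a genotype, with correlations above 0.1 in 6 of 6 pairs of KO groups and 4 of 6 of WT groups, against 2 of 16 pairs of a KO with a WT group; the sources used here do not say what a number shares. Alternatives were another pseudocount, quantile normalization, scaling by median ratios, testing unfiltered genes, blocking on replicate number, fitting the compared groups alone, no fold criterion, limma-voom on recovered reads, and leaving out each library. A block within each genotype and leaving out T1 replicate 2 in both genotypes were added after seeing the data. RefSeq tables (GRCm38.p6) and GENCODE M21 gave positions and sequences.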

Additional observations from a re-analysis of the deposited data

How the results depend on the processing

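The number of members called was 2 in FO against T1 and 0 between KO and WT in each subset, across subsets and in the MZ to T2 change. These counts held under every alternative run and without each library in turn. A call needs a mean above 1 RPKM in a compared group. With all libraries in, 1 member reached it in T1, 2 in T2 and 3 in FO and in FO against T1. For the other members there, no call was possible, so an unchanged count says nothing about them. Fitting the compared groups alone tested only the members that reached it. Of all values recomputed, 676 were labelled unchanged and 30 changed sign. For a difference of 1 member, unchanged means the same sign and the same side of the threshold, whatever its size. Such values could move far, as Tsga13 between KO and WT in T2 did, from 0.41 to 2.35 with limma-voom. Size was checked only for the median MZ to T2 difference, which moved by more than a median standard error in 2 settings. Over its alternatives AW011738 differed between FO and T1 by 1.15 to 2.16 (adjusted p = 3.59e-04 to 0.0191) and Ffar2 by 1.01 to 3.41 (adjusted p = 2.14e-04 to 0.00967, limma). The median MZ to T2 difference of the 5 genes was 5.20, 5.73 with a pseudocount of 0.1 and 4.74 with 1, which act on low T2 values by construction. Quantile normalization turned uncalled differences, to -0.0157 for Ffar2 between KO and WT in T1, -0.0180 for Tsga13 between KO and WT in FO and -0.0217 for Tsga13 between FO and T1; the cause was not tested.

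Without 1 library, uncalled differences near 0 changed sign. Between KO and WT in T1 the ranges were -0.0486 to 0.68 for I830077J02Rik, -0.12 to 1.14 for AW011738 and -0.14 to 0.28 for Ffar2. In T2 they were -0.31 to 0.26 for AW011738, -0.35 to 0.41 for Ffar2 and -0.55 to 0.72 for Asb2. In MZ they were -0.13 to 0.49 for Tsga13 and -0.19 to 0.42 for I830077J02Rik, and in FO -0.19 to 0.24 for Tsga13. Across the subsets they were -0.0303 to 0.19 for I830077J02Rik and -0.0489 to 0.27 for Asb2. In the MZ to T2 change they were -0.55 to 0.0731 for Tsga13, -0.48 to 0.28 for Ffar2 and -0.97 to 0.30 for Asb2, and between FO and T1 -0.13 to 0.31 for I830077J02Rik and -0.19 to 0.0637 for Asb2.

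With the replicate number as a block over all libraries, 2 members were called between FO and T1 and 0 in the other comparisons, and 1207 genes were called between FO and T1 against 1188 without it. With the block within each genotype, which follows the correlations given with the methods, the members called were again 2 and 0 (AW011738 adjusted p = 0.00294, Ffar2 adjusted p = 0.00135, limma), and 1230 genes were called between FO and T1, 24 across the subsets (against 9) and 0 in the MZ to T2 change (against 1). Without T1 replicate 2 in both genotypes, Ffar2 between KO and WT in T1 was -0.23, and FO minus T1 was -0.16 for I830077J02Rik and 0.0839 for Asb2; 20 genes were called between KO and WT in T1 (against 5). These alternatives were chosen after seeing the data. Depth limits the low levels most, since T1, T2 and FO values of the members rest on 0 to 192 reads a library, and with 2 libraries a group the spread comes from the fit over all 16. Over all genes limma called 29 across the subsets with no fold criterion against 9 with it, and 5144 against 1188 between FO and T1. Between KO and WT, fitting the compared groups alone gave 1 call in T1 (against 5), 1 for T2 (against 6), 3 for MZ (against 8) and 1 for FO (against 4), and limma-voom gave 2 for T2 and 5 for MZ. For the MZ to T2 change 1 gene was called, against 0 with a pseudocount of 0.1, with limma-voom or with the compared groups alone, 3 with a pseudocount of 1 and 4 with no filter. Leaving out 1 library moved these all-gene counts too: for T1 to 13 without KO replicate 1, 32 without WT replicate 1 and 10 without WT replicate 2; for T2 to 35 without WT replicate 1 and 32 without WT replicate 2; for MZ to 5 without KO replicate 1 or either WT replicate; for FO to 1 without replicate 1 of KO or of WT and 2 without KO replicate 2; and for the MZ to T2 change to 10 and 7 without WT T2 replicates 1 and 2 and to 0 without any 1 of the other 6 libraries.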
